A study of Saccharomyces cerevisiae with 12 samples.

Results

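The genes described here are 51 nuclear genes of Saccharomyces cerevisiae that code for the enzymes and complexes of mitochondrial respiration, out of 6600 features counted. They are defined by function, as a list of systematic names with no threshold on a measured value, and the list was drawn up with earlier results of these data known. The list holds 12 genes of the tricarboxylic acid (TCA) cycle, 4 of succinate dehydrogenase (complex II), 3 NADH dehydrogenases, 9 of complex III, 2 cytochromes c, 9 of complex IV and 12 of ATP synthase. RNA was sequenced from BY4741, a haploid MATa laboratory strain in which HIS3, LEU2, MET17 and URA3 are deleted, and every library carries these deletions. Cells were grown for 20 h in diluted YPD, a glucose medium, with 1, 2 or 4 µg/mL PeAfpA, an antifungal protein of the mould Penicillium expansum, or with none (control). Each condition had 3 libraries, from 3 flask cultures. The study calls these PeAfpA concentrations sub-inhibitory, and the comparisons ask how the transcriptome differs between cells grown with and without the protein.

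Yeast ferments glucose even in air, and many genes of respiration are repressed while glucose is plentiful and expressed when it runs out. The TCA cycle oxidises acetyl groups and yields NADH and succinate. Electrons from NADH enter the respiratory chain through single-protein NADH dehydrogenases, since this yeast has no proton-pumping complex I, and electrons from succinate enter through complex II. They pass from ubiquinone to complex III, cytochrome c and complex IV, which reduces oxygen, and ATP synthase uses the resulting proton gradient. A known activator of these genes is the HAP complex, of HAP2, HAP3 and HAP5, which binds the sequence CCAAT, with HAP4, which activates transcription. Some enzymes exist as isoforms, of which COX5B (complex IV) is known as the form of low oxygen, CYC7 as the minor cytochrome c, and NDE2 as the less expressed of the external NADH dehydrogenases.

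Totals lay between 7153797 and 10270183 counts per library. The labels name mycelia as the source, although the strain is a yeast, and the genes of the strain matched its name: LEU2, URA3 and MET17 had 0 counts in all 12 libraries, HIS3, which keeps part of its sequence, had 381 to 649, and STE2, the receptor of MATa cells, had 855 to 4740 against 94 to 299 for STE3, the receptor of the other mating type. All 51 genes passed the filter on low values, which kept 5909 genes. Of these 5909 genes, 19.3% were higher and 23% were lower at 4 µg/mL than in the control by edgeR's quasi-likelihood test at a Benjamini-Hochberg adjusted p under 0.05, the rule by which a gene is said below to have risen or fallen. In 4 µg/mL against 2 µg/mL the shares were 15.4% higher and 18.7% lower. Replicate 3 of 4 µg/mL and replicate 1 of 1 µg/mL stood apart, with the lowest scaling factors (0.808 and 0.846 by the TMM method, against 0.99 to 1.12 in the other libraries). Both are named beside the results they touch.

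The sequence before these genes was read for the letters of the HAP site. In the 300 bases before the start codon, CCAAT was found on either strand in 42 of the 51 genes (82.4%) and in 41.8% of 6001 promoters of the genome. The longer form ACCAATNA, which contains CCAAT, was found in 16 of the 51 (31.4%) and in 5.22% of all. CCAAT itself was found before 18 of the 20 genes that fell at 4 µg/mL (90%) and before 24 of the other 31 (77.4%), while the longer form was found before 4 of the 20 (20%) and 12 of the other 31 (38.7%), so the order of the shares differs between the forms, and neither difference was tested. ATTGTT, the core of the site of the hypoxic repressor Rox1, was found before 23 of the 51 (45.1%) and in 34.1% of all. It was found before 6 of the 20 genes that fell (30%) and 17 of the other 31 (54.8%), a difference that was not tested. The stretches below are shown because they carry CCAAT or ACCAATNA in the genes on which the results turn. They are read 5′ to 3′ on the strand of the gene from the R64 assembly, with that match in capitals. A match describes letters and not a site in use.

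COX5A and COX5B, the exchangeable forms of a complex IV subunit, are shown first. COX5A has CCAAT 170 and, on the other strand, 145 bases before its start codon (chrXIV:531545-531569 and chrXIV:531570-531594, + strand). COX5B has it 247 bases before (chrIX:154965-154989, + strand) and, within ACCAATNA, 73 bases before (chrIX:155139-155166, + strand). ATTGTT lies 224 and, on the other strand, 81 bases before COX5B, the latter in small letters inside the last stretch. Before COX5A it lies at 95, on the other strand and outside the stretches shown.
COX5A, CCAAT at 170: caaaaatcgtCCAATagacgttttc
COX5A, CCAAT at 145: ctcgtttgtgATTGGccctacgttt
COX5B, CCAAT at 247: atgacactcaCCAATttcttttttt
COX5B, ACCAATNA at 73: taaacaatagACCAATTAtttcaattta

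The genes that carry ACCAATNA and fell were ACO1 (chrXII:737822-737848, - strand), NDI1 (chrXIII:30018-30045, - strand), COX12 (chrXII:225361-225388, - strand) and COX13 (chrVII:144585-144612, + strand). Of those that carry it and were not called, RIP1 (chrV:107002-107029, + strand), ATP4 (chrXVI:408917-408944, - strand) and ATP17 (chrIV:1228371-1228398, + strand) are set beside them. ACO1, NDI1, COX12, RIP1, ATP4 and ATP17 share the same 8 capitals, and the first 3 of these fell while the others were not called.
ACO1: aaggtcctgACCAATCAatagagaaat
NDI1: attcattcggACCAATCAtatgaaggca
COX12: cataacattgACCAATCAattttcagaa
COX13: tttttttcccACCAATGAgaggcggtac
RIP1: tccataacggACCAATCAgcgttttgcg
ATP4: tcaatattgaACCAATCAcgacgctttt
ATP17: tacggagagaACCAATCAtatcgaagga

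At 4 µg/mL PeAfpA, transcripts of the TCA cycle and of complex II, which feed the respiratory chain, were lower than in the control, and no gene of complex III or ATP synthase passed the test. Of the 51 genes, 20 fell (against 23% of all genes tested), 1 rose (against 19.3%) and 30 were not called. Fallen genes were thus a larger share of the 51 than of all genes tested, and they were unevenly spread over the complexes. Genes of the TCA cycle fell in 9 of 12 cases, complex II in 4 of 4, the NADH dehydrogenases in 2 of 3, complex IV in 4 of 9 and cytochrome c in 1 of 2, against 0 of 9 in complex III and 0 of 12 in ATP synthase, in either direction. The median log2 fold change over the 51 genes was -0.45, against -0.04 over all genes tested. By complex, it was -0.88 for the TCA cycle, -1.17 for complex II, -0.92 for the NADH dehydrogenases, -0.13 for complex III, -0.97 for cytochrome c, -0.68 for complex IV and -0.06 for ATP synthase, and no median changed sign with RLE size factors or library size alone. All 3 libraries of 4 µg/mL lay below all 3 controls in 24 genes (31.7% of all genes tested did) and above them in 5 (27.4% did).

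**Figure D1:**
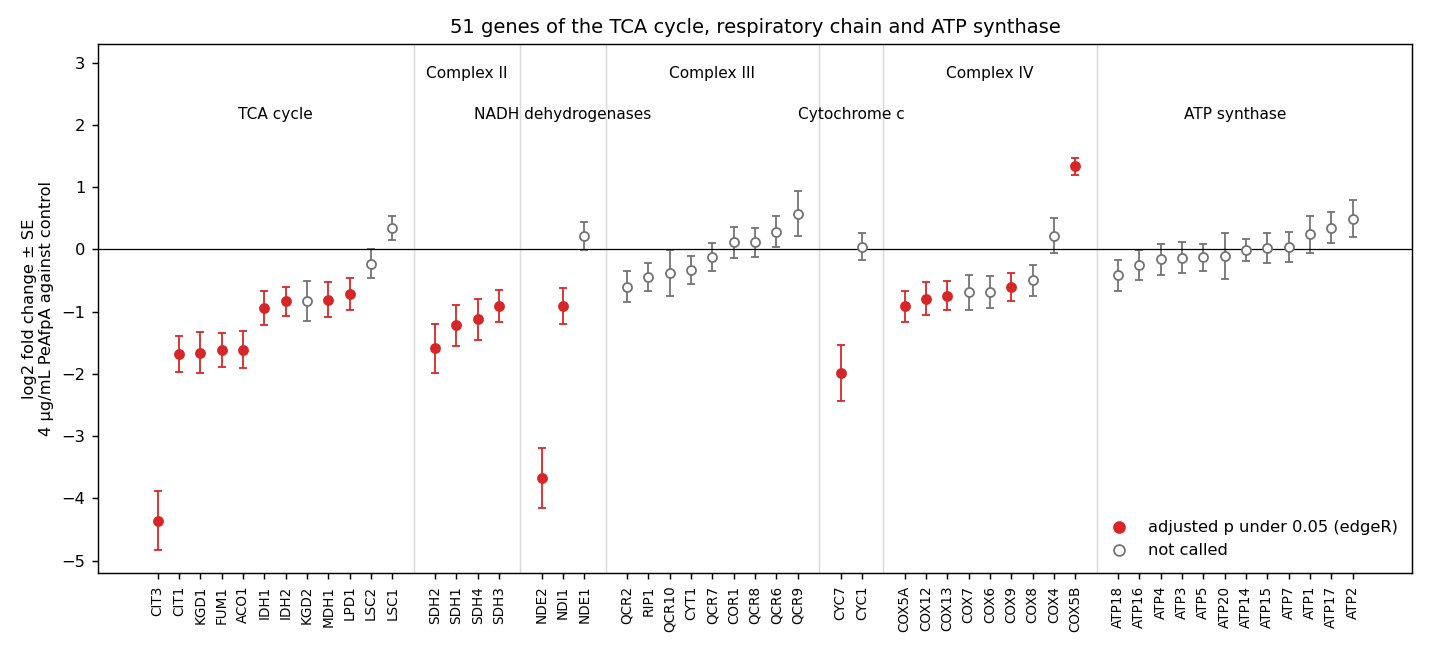
Log2 fold change of 4 µg/mL PeAfpA against control for each of the 51 genes, with its standard error, by complex (vertical axis, log2; filled red points passed edgeR's test and open points did not). CIT3 and NDE2 lie lowest at -4.36 and -3.68, COX5B stands alone as a called rise at 1.33, and all complex III and ATP synthase points are open symbols around 0.

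The summed normalised count per complex shows the same for the TCA cycle and complex II in each library. Normalised counts here are counts scaled by the TMM factor, so that libraries can be compared. TCA cycle genes together were at 60.7%, 44.2% and 28.0% of the control mean in replicates 1, 2 and 3 of 4 µg/mL, against 93.4%, 112.6% and 94.1% in the controls. Complex II was at 63.8%, 42.4% and 22.5% in these libraries, against 98.3%, 110.9% and 90.8% in the controls. The NADH dehydrogenases were at 91.1%, 69.0% and 69.0% at 4 µg/mL, against 99.6%, 107.4% and 93.0% in the controls, and complex IV at 88.0%, 68.5% and 52.0%, against 100.1%, 110.8% and 89.1%. In these 4 sums every 4 µg/mL library was below every control, by a narrow margin for replicate 1 in the NADH dehydrogenases and complex IV. ATP synthase genes together were at 125.1%, 105.8% and 104.6%, against 96.8%, 111.6% and 91.7% in the controls, and these ranges overlapped. Complex III lay at 117.3%, 90.5% and 75.8%, on both sides of its controls at 97.9%, 108.0% and 94.0%. The 2 cytochromes c together were at 115.1%, 86.2% and 77.9%, against 86.5%, 115.8% and 97.7% in the controls, and overlapped them. All 51 genes together were at 91%, 71% and 59% of the control mean at 4 µg/mL, against 96%, 111% and 93% in the controls. As shares of counts without TMM scaling, they took 4.78%, 3.58% and 2.44% at 4 µg/mL, against 5.31%, 5.88% and 5.31% in the controls. By that unscaled measure ATP synthase took 1.72%, 1.40% and 1.13% at 4 µg/mL, against 1.39%, 1.54% and 1.37% in the controls.

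**Figure D2:**
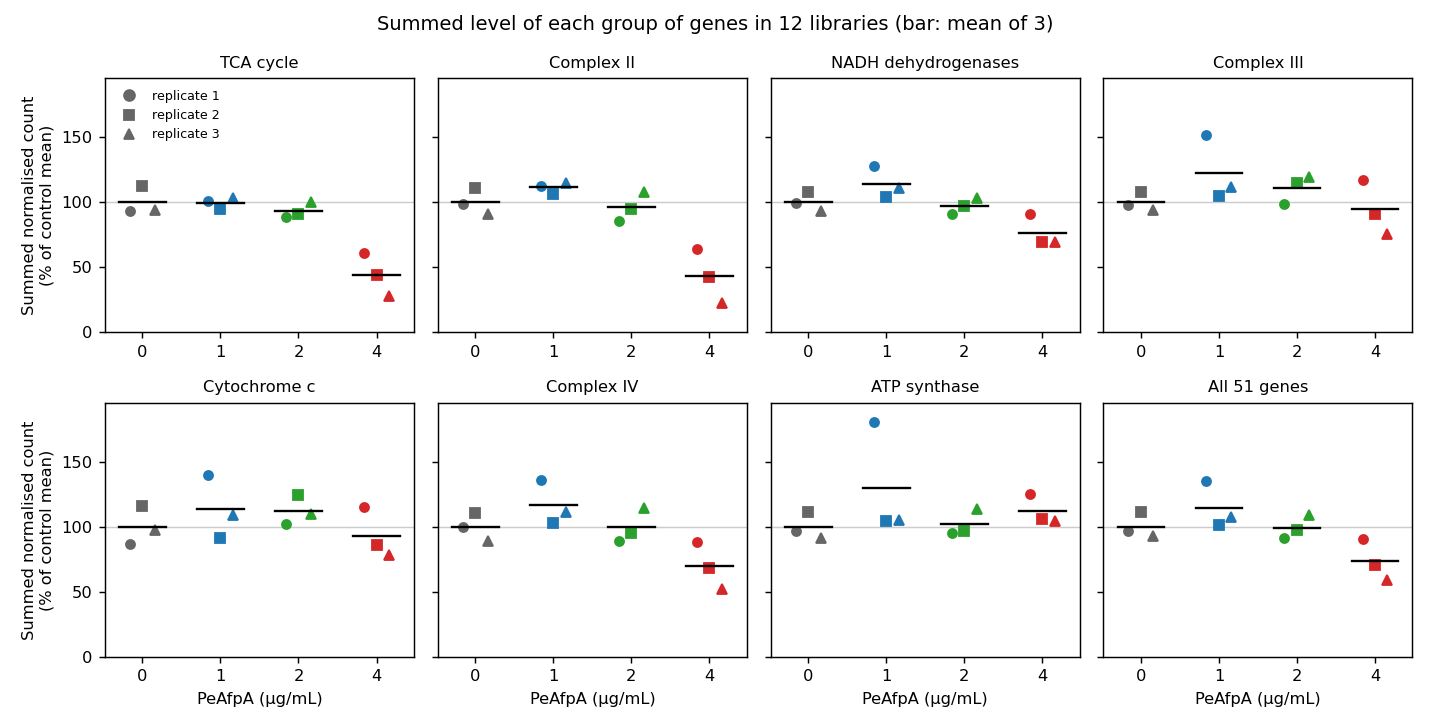
Summed normalised count of each complex as a percentage of the control mean (vertical axis) in the 12 libraries by PeAfpA concentration (horizontal axis, µg/mL; circle, square and triangle are replicates 1, 2 and 3, the bar is the mean of 3). TCA cycle and complex II drop below every other library only at 4 µg/mL, and replicate 1 of 1 µg/mL stands out for ATP synthase at 180.4%.

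The 3 libraries of 4 µg/mL were not alike. Replicate 3, the library with the lowest scaling factor, was the lowest of the 3 in 45 of the 51 genes (88.2%), against 43.0% of all genes tested. Replicate 1 had the highest of the 3 values in the sum of every complex. Without replicate 1 of 4 µg/mL, 3 genes of complex III and 1 of ATP synthase were called as falls. In that fit 27 of the 51 genes fell (52.9%, against 22.4% of all genes). Without replicate 2 of 4 µg/mL it was 13 (25.5%, against 18% of all), and without replicate 3 of 4 µg/mL 14 (27.5%, against 14% of all). Without control replicate 2, the highest control in the sum of every complex, 10 fell, and their share (19.6%) was then near that of all genes (17.7%). Without both libraries of lowest scaling factor, an alternative chosen after seeing the data, 16 fell (31.4%, against 21.1% of all) and 1 rose. Through these and all other alternatives run (22), 11 genes kept their call: CIT1, CIT3, ACO1, KGD1, FUM1, SDH1, SDH2, NDE2, CYC7 and COX5A fell and COX5B rose. The data are from whole cultures, in which fewer cells that express a gene and less RNA of it per cell cannot be told apart.

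Among the TCA cycle genes, citrate synthase, aconitase, the first subunit of 2-oxoglutarate dehydrogenase and fumarase stood out. CIT1 (YNR001C, chrXIV:629622-631061 in R64), the main mitochondrial citrate synthase, had 9517, 6977 and 4675 normalised counts at 4 µg/mL, against 21506, 25744 and 20291 in the control. Every 4 µg/mL library lay below every control, and CIT1 fell by 1.67 on the log2 scale (SE 0.29, adjusted p = 0.0016 by edgeR). Falls of like size were measured for ACO1, aconitase (-1.61), KGD1, the dehydrogenase subunit of the 2-oxoglutarate complex (-1.66), and FUM1, fumarase (-1.62). The falls of IDH1 and IDH2, the subunits of the NAD-dependent isocitrate dehydrogenase, were smaller, at -0.94 and -0.83, as were those of MDH1, mitochondrial malate dehydrogenase, at -0.81 and LPD1, the lipoamide dehydrogenase that the 2-oxoglutarate complex shares with pyruvate dehydrogenase, at -0.72. KGD2, the partner of KGD1 in the same complex, had a log2 fold change of -0.83 with an adjusted p of 0.0505 by edgeR, just outside the threshold, and passed in DESeq2 and limma-voom. Without control replicate 2, 5 of the 12 genes of the cycle fell in place of 9.

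The largest difference of all 51 genes was that of CIT3 (YPR001W, chrXVI:556377-557837), a second mitochondrial enzyme that makes citrate and methylcitrate. It had 191, 122 and 105 normalised counts at 4 µg/mL, against 3675, 2778 and 2167 in the control. The highest 4 µg/mL library was far below the lowest control, and CIT3 fell by 4.36 on the log2 scale (SE 0.47, adjusted p = 1.1e-04 by edgeR), to 4.84% of the control mean. At the other end was LSC1 (YOR142W, chrXV:593057-594046), the alpha subunit of succinyl-CoA ligase, the step of the cycle that makes ATP directly. It had 2695, 2901 and 2794 normalised counts at 4 µg/mL, against 2126, 2577 and 1906 in the control. These did not overlap, but LSC1 did not pass edgeR's test (0.34, adjusted p = 0.178), and its partner LSC2, at -0.23, did not pass either. LSC1 was called as a rise in limma-voom (0.45, adjusted p = 0.0054).

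All 4 subunits of complex II fell. SDH2 (YLL041C, chrXII:53131-53931), the iron-sulphur subunit, had 8121, 5052 and 1939.6 normalised counts at 4 µg/mL, against 15319, 16835 and 13312 in the control. No library of 4 µg/mL reached the controls, and SDH2 fell by 1.59 (SE 0.39, adjusted p = 0.0081 by edgeR). SDH3 (YKL141W, chrXI:179667-180263), a membrane anchor, had the smallest fall of the 4, with 8088, 6126 and 4110.0 normalised counts at 4 µg/mL against 10326, 13763 and 10299 in the control, and a log2 fold change of -0.91 (adjusted p = 0.0143 by edgeR). SDH1, the flavoprotein subunit, fell by 1.22 and SDH4, the other anchor, fell by 1.13. Without control replicate 2 the calls of SDH3 and SDH4 were lost, and 2 of the 4 genes remained.

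The 3 NADH dehydrogenases went different ways. NDE2 (YDL085W, chrIV:303211-304848), which oxidises cytosolic NADH at the outer face of the inner membrane, had 370.1, 321 and 168 normalised counts at 4 µg/mL, against 3418, 4619 and 2983 in the control. Its libraries were apart by a wide gap, and NDE2 fell by 3.68 on the log2 scale (SE 0.48, adjusted p = 3.3e-04 by edgeR). NDE1 (YMR145C, chrXIII:554793-556475), the other external enzyme, had 13869.6, 11046 and 13090.1 normalised counts at 4 µg/mL, against 11016, 11682 and 9917 in the control, and these groups overlapped (0.22, adjusted p = 0.446 by edgeR). NDI1 (YML120C, chrXIII:28266-29807), the internal enzyme that takes NADH of the TCA cycle, had 6199.9, 4129 and 2223 normalised counts at 4 µg/mL, against 7924, 7815 and 7965 in the control. The controls of NDI1 were close to each other and the 4 µg/mL libraries all lower, with a log2 fold change of -0.92 (SE 0.29, adjusted p = 0.0234 by edgeR). That call was lost, at adjusted p of 0.0533 to 0.0623, with any control or replicate 2 of 4 µg/mL left out, and at 0.055 with the 2 groups fitted alone.

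None of the 9 genes of complex III was called, and their log2 fold changes ran from -0.60 to 0.58. QCR2 (YPR191W, chrXVI:919381-920487), a core subunit, had 9409.7, 7336 and 4638 normalised counts at 4 µg/mL, against 9871, 11882 and 10667 in the control. Every 4 µg/mL library was below the controls, replicate 1 only narrowly, and edgeR's adjusted p was 0.069, while DESeq2 and limma-voom called it. QCR9 (YGR183C, chrVII:859063-859476), a small subunit, had 4647, 3688 and 3446 normalised counts at 4 µg/mL, against 3293, 2354 and 2255 in the control. These did not overlap and gave an adjusted p of 0.209 by edgeR, while limma-voom called QCR9 as a rise (0.58, adjusted p = 0.023). The catalytic subunits RIP1, the Rieske iron-sulphur protein, and CYT1, cytochrome c1, had log2 fold changes of -0.45 and -0.33 with overlapping groups. Of these, limma-voom called RIP1. Without replicate 1 of 4 µg/mL, edgeR called 3 of the 9 genes as falls: QCR2, RIP1 and CYT1.

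Of the cytochromes c, which carry electrons from complex III to complex IV, the minor form fell and the major form was not called. CYC7 (YEL039C, chrV:79636-79977) had 167, 136 and 65 normalised counts at 4 µg/mL, against 362, 500.2 and 611 in the control. The groups did not overlap, and CYC7 fell by 1.99 (SE 0.45, adjusted p = 0.0053 by edgeR). CYC1 (YJR048W, chrX:526335-526664) had 4176, 3119 and 2874 normalised counts at 4 µg/mL, against 2902, 3873 and 3078 in the control, which overlapped (0.05, adjusted p = 0.878 by edgeR). Per kilobase of coding sequence, CYC1 stood at 10272 normalised counts at 4 µg/mL and 9952 in the control, and CYC7 at 359 and 1436. The coding sequences of the pair match at 80.0% over 300 bases, the only similarity of note among the 51 genes, and no gene had a copy of 95% identity over 100 bases.

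In complex IV, COX5A fell and COX5B rose, the pair whose upstream stretches are printed above. COX5A (YNL052W, chrXIV:531725-532186), the form of aerobic cells, had 5731, 4063 and 2937 normalised counts at 4 µg/mL, against 8406, 8646 and 6966 in the control. Each 4 µg/mL library lay below each control, with a log2 fold change of -0.92 (SE 0.25, adjusted p = 0.0121 by edgeR). COX5B (YIL111W, chrIX:155222-155765) had 950.4, 1220.2 and 896 normalised counts at 4 µg/mL, against 379.7, 425 and 414 in the control. The controls and the libraries of 1 and 2 µg/mL lay close together and all 4 µg/mL libraries far above, so that COX5B rose by 1.33 (SE 0.14, adjusted p = 1.1e-04 by edgeR), the only called rise among the 51 genes. COX5A stayed the larger form, at 9185 against 2242 normalised counts per kilobase for COX5B at 4 µg/mL, and 17329 against 891 in the control.

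The other nuclear subunits of complex IV fell or were not called. COX12, COX13 and COX9, small subunits around the catalytic core, fell, with log2 fold changes of -0.79, -0.74 and -0.61. COX6, COX7 and COX8 had log2 fold changes of -0.68, -0.69 and -0.50 and adjusted p-values of 0.0535, 0.0667 and 0.125 by edgeR, and COX4 one of 0.22. The count of 4 falls in complex IV is unsteady: it was 7 in limma-voom, 2 without control replicate 1, without control replicate 3 or without both libraries of lowest scaling factor, and 1 without control replicate 2, without replicate 2 of 4 µg/mL or without replicate 3 of 4 µg/mL.

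No gene of ATP synthase was called. The 12 genes had log2 fold changes from -0.42 to 0.49, of which 5 were above 0 and 7 below. ATP2 (YJR121W, chrX:647607-649142), the catalytic beta subunit, had 50782, 43717 and 51464 normalised counts at 4 µg/mL, against 33552, 36974 and 33271 in the control. Its groups did not overlap, yet edgeR did not call it (0.49, SE 0.30, adjusted p = 0.201), while DESeq2 (adjusted p = 0.0445) and limma-voom (adjusted p = 0.0449) did. ATP18 (YML081C-A, chrXIII:103983-104162), a small subunit of the membrane sector, had 5231, 3952 and 2641 normalised counts at 4 µg/mL, against 4747, 6328 and 4708 in the control, with overlap (-0.42, adjusted p = 0.195 by edgeR). Without replicate 1 of 4 µg/mL, edgeR called ATP18 as a fall (-0.67, adjusted p = 0.0492). ATP1, the alpha subunit, was at 0.24. ATP2 at 4 µg/mL was among the highest per kilobase of the 51 genes, at 31676 normalised counts against 22525 in the control, beside ATP15, the epsilon subunit, at 31727 and 31214.

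The balance within the isoform pairs differed at 4 µg/mL. The ratio of CIT1 to CIT3 per kilobase was 50.5, 58.1 and 45.4 at 4 µg/mL, against 5.94, 9.40 and 9.50 in the control, and its log2 mean was 5.67 ± 0.18 against 3.02 ± 0.39 (SD). For NDE1 to NDE2 it was 36.5, 33.5 and 75.7 at 4 µg/mL, against 3.14, 2.46 and 3.24 in the control. CYC1 to CYC7 stood at 25.9, 23.7 and 45.8, against 8.30, 8.02 and 5.22. In these 3 pairs each library of 4 µg/mL had a higher ratio than each control. COX5A to COX5B went the other way, with ratios of 5.95, 3.29 and 3.23 at 4 µg/mL against 21.8, 20.1 and 16.6 in the control. The differences in log2 ratio, 4 µg/mL minus control, were 2.66, 3.95, 2.11 and -2.28, and the exact two-sided permutation test gave p = 0.1 for each, the smallest that 3 against 3 libraries allow (adjusted p = 0.133 over the 12 comparisons of 4 pairs at 3 concentrations).

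**Figure D3:**
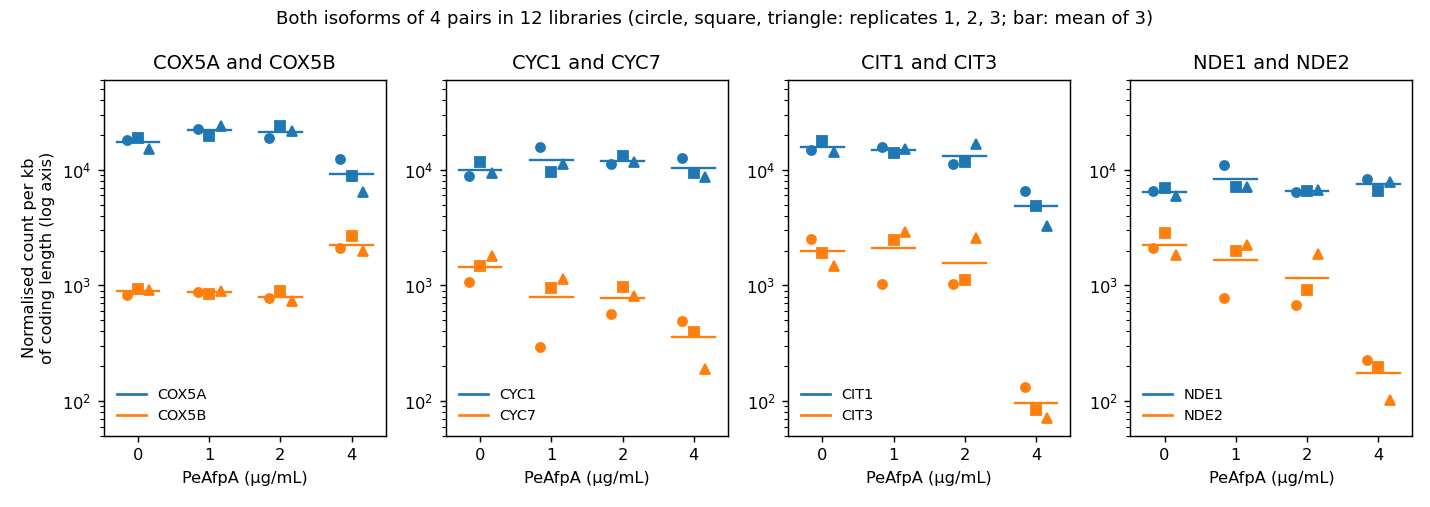
Normalised count per kilobase of coding sequence (vertical log axis) of both isoforms of COX5, cytochrome c, citrate synthase and the external NADH dehydrogenase in the 12 libraries by PeAfpA concentration (horizontal axis, µg/mL; points are libraries, bars are means of 3). COX5B climbs at 4 µg/mL to a mean of 2242 while COX5A sinks to 9185, and CIT3 and NDE2 drop to 95.3 and 175 while NDE1 stands at 7527.

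At 2 µg/mL no gene of the 51 was called by edgeR, and nor was any other (0% of all genes tested). At an unadjusted p under 0.05 in edgeR's quasi-likelihood test there were 2, NDE2 and QCR6, while 9.7% of all genes tested were under it. DESeq2 called none of the 51 (0.575% of all genes), and limma-voom with sample quality weights called 5, where it called 21.7% of all genes tested. These 5 were NDE2 (log2 fold change -1.37), CYC7 (-1.11), ATP20 (-0.75), COX7 (-0.65) and QCR6 (0.57), the last 3 being small subunits of ATP synthase, complex IV and complex III. Fold changes of the 51 genes at 2 µg/mL in edgeR ran from -0.96 to 0.54 with a median of -0.01.

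The replicates of 2 µg/mL differed in the genes that fell most at 4 µg/mL. NDE2 had 1117, 1485 and 3071 normalised counts in replicates 1, 2 and 3 of 2 µg/mL, against 3418, 4619 and 2983 in the control. CIT3 had 1515, 1634 and 3719.7 at 2 µg/mL, against 3675, 2778 and 2167 in the control. In both genes replicates 1 and 2 were below every control, and replicate 3 was among the controls or above them. CYC7 was below all controls in the 3 libraries of 2 µg/mL, at 194, 330.3 and 279 normalised counts, with a fold change of -0.88 that edgeR did not call. The ratio of COX5A to COX5B, which was lower than in the control at 4 µg/mL, was higher than in every control at 2 µg/mL (24.2, 26.6 and 29.5) and at 1 µg/mL (25.4, 23.3 and 26.9), with p = 0.1 (adjusted p = 0.133) in the exact permutation test for each. CYC1 to CYC7 was also above every control at 2 µg/mL (19.6, 13.7 and 14.3) and 1 µg/mL (53.5, 10.1 and 9.94), with the same p-values by that test. So was NDE1 to NDE2 at 2 µg/mL (9.42, 7.28 and 3.59), but not at 1 µg/mL (p = 0.2, exact test). CIT1 to CIT3 overlapped its controls at both concentrations (p = 0.5 at 2 and 0.8 at 1 µg/mL, exact test).

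At 1 µg/mL no gene of the 51 was called by edgeR (0% of all genes tested), none had an unadjusted p under 0.05 (9.07% of all genes tested did), and none was called by DESeq2 (0.0508% of all) or limma-voom (0.0338% of all). In log2 fold change, 41 of the 51 (80.4%) were above 0, against 47.4% of all genes tested, with all 9 of complex III and all 12 of ATP synthase among them and medians of 0.25 and 0.27 in these complexes. Replicate 1 of 1 µg/mL, the library of low scaling factor, was the highest of the 12 libraries in 31 of the 51 genes (60.8%) and in every ATP synthase gene, against 9.73% of all genes tested. ATP2 had 70149, 37095 and 38574 normalised counts in replicates 1, 2 and 3 of 1 µg/mL, against 33552, 36974 and 33271 in the control. Summed ATP synthase was at 180.4% of the control mean in replicate 1, and at 104.3% and 104.8% in the others. The same replicate was the lowest of its group in CIT3 (1507 against 3583 and 4212), NDE2 (1264 against 3243 and 3654) and CYC7 (100.2 against 322 and 388).

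The members described above at 4 µg/mL were also read in each library of 1 and 2 µg/mL, in the order of replicates 1, 2 and 3. CIT1 had 22449, 19927 and 21659.7 normalised counts at 1 µg/mL and 16266, 16634 and 23956 at 2 µg/mL. SDH2 had 13354, 16319 and 17898 normalised counts at 1 µg/mL and 13199.9, 13928 and 16159 at 2 µg/mL. SDH3 had 12333, 10349 and 12076 normalised counts at 1 µg/mL and 10127, 10753 and 11535 at 2 µg/mL. In these 3 genes every library of 1 and 2 µg/mL was above every library of 4 µg/mL. NDI1 had 8962, 8321 and 9322 normalised counts at 1 µg/mL and 8393, 9135 and 8705 at 2 µg/mL, again all above 4 µg/mL. COX5A had 10307, 9110.1 and 11068 normalised counts at 1 µg/mL and 8614, 10948 and 10013 at 2 µg/mL, and COX5B had 399.8, 385 and 407 at 1 µg/mL and 351, 406 and 335 at 2 µg/mL. For COX5A all 6 libraries lay above those of 4 µg/mL, and for COX5B all 6 lay below them. LSC1 had 3697, 2152 and 2376 normalised counts at 1 µg/mL and 2550.2, 2464 and 2455 at 2 µg/mL. QCR2 had 10008, 10617 and 12229 normalised counts at 1 µg/mL and 9646, 11333 and 10322 at 2 µg/mL. QCR9 had 6059, 2809 and 2465 normalised counts at 1 µg/mL and 2485, 1908 and 4358 at 2 µg/mL. Replicate 1 of 1 µg/mL was the highest of the 12 libraries for LSC1 and QCR9, and not for QCR2. NDE1 had 18362, 11837 and 11959.6 normalised counts at 1 µg/mL and 10806, 11110.1 and 11337 at 2 µg/mL. CYC1 had 5178, 3139 and 3721 normalised counts at 1 µg/mL and 3662, 4355 and 3856 at 2 µg/mL. ATP18 had 7333, 5241 and 5611 normalised counts at 1 µg/mL and 5030.4, 4667 and 5719.8 at 2 µg/mL. The same replicate was the highest of all in these 3 genes. ATP2 had 36166, 39827 and 39173 normalised counts at 2 µg/mL, close to replicates 2 and 3 of 1 µg/mL.

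Set against 2 µg/mL, the 4 µg/mL libraries were again lower in genes of the TCA cycle and complex II. Of the 51, 17 fell (against 18.7% of all genes tested) and 1, COX5B, rose (against 15.4%). Those that fell were 8 of the TCA cycle, 4 of complex II, 2 NADH dehydrogenases and 3 of complex IV, and the median over the 51 was -0.39, against -0.004 over all genes tested. Log2 fold changes were -4.03 for CIT3, -2.72 for NDE2, -1.52 for SDH2 and -1.22 for COX5A, and 1.49 for COX5B. The comparison shares its 4 µg/mL libraries with the one against control, and so is not independent of it. Without replicate 2 of 2 µg/mL the count of falls was 10, and without replicate 2 or replicate 3 of 4 µg/mL it was 11. The shares of all genes in these fits were not computed.

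Genes around these complexes were described by lists, whose counts at 4 µg/mL stand against the 23% of all genes tested that fell and the 19.3% that rose. Complex II paralogues and assembly factors fell in 5 of 7 cases (median -1.0), led by SDH9 (YJL045W), a paralogue of SDH1, at -3.76, and SHH3 and SHH4, paralogues of SDH3 and SDH4, at -2.23 each. Of the TCA-linked isozymes and anaplerotic enzymes, 8 of 11 fell (median -0.82), with CIT2, the peroxisomal citrate synthase, at -3.53 and IDP2, the cytosolic NADP-dependent isocitrate dehydrogenase, at -3.19. Other dehydrogenases that feed electrons to the chain fell in 3 of 4 (median -1.65): CYB2 (-2.03) and DLD1 (-1.68), which oxidise lactate, and GUT2 (-1.63), which oxidises glycerol 3-phosphate. Coenzyme Q synthesis fell in 6 of 11 (median -0.48), with COQ11, a protein of the complex that makes it, lowest at -0.71. The shares that fell in these 4 lists, 71.4%, 72.7%, 75% and 54.5%, were above that of all genes. Some of these calls were lost in alternatives: SDH7 in 14 of 22, IDP1 and PYC1 in 5 each, and MDH3 in 2. In coenzyme Q synthesis COQ3 and COQ9 lost theirs in 5 each, COQ8 in 4, and COQ4 and CAT5 in 1 each. COQ11 and the other called genes of these lists kept theirs in all. None of the 4 genes of pyruvate dehydrogenase, which feeds acetyl-CoA into the cycle, was called (median -0.09).

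The biogenesis factors as lists were near or below the shares of all genes tested (23% lower and 19.3% higher). For complex III and cytochrome c, 2 of 12 fell and 2 rose (16.7% each, median -0.17). Among these were CBP4, an assembly factor, at -0.94, whose call was lost without control replicate 2 (adjusted p = 0.0661 by edgeR), and CYT2, which attaches haem to cytochrome c1, at 0.87. For complex IV, 8 of 35 fell (22.9%) and 3 rose (8.57%), with a median of -0.18. COX26, a small protein bound to complex IV, was far from the rest of that list: it had 148, 104 and 33 normalised counts at 4 µg/mL, against 1210.5, 955 and 702 in the control, a log2 fold change of -3.30. ATP synthase biogenesis genes and further subunits fell in 4 of 14 (28.6%, median -0.20), with ATP10, an assembly factor, at -0.85. Its call was lost without control replicate 1 or 3, or replicate 2 or 3 of 4 µg/mL (adjusted p = 0.0523 to 0.0765 by edgeR). Of 3 inhibitors of the enzyme (median 0.09) STF1 fell, at -0.83, a call lost with any control or replicate 2 or 3 of 4 µg/mL left out, and with the 2 groups fitted alone (adjusted p = 0.0545 to 0.104 by edgeR).

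Of 15 carriers of the inner membrane, 6 fell (40%, against 23% of all genes tested) and 3 rose (20%, against 19.3%), with a median of -0.07. SFC1, the succinate-fumarate carrier, fell by 4.26 on the log2 scale. AAC1, a minor ADP/ATP carrier, had 1322, 1063 and 921 normalised counts at 4 µg/mL, against 2559.9, 2712 and 2078 in the control, and fell by 1.15. AAC3, the ADP/ATP carrier known from anaerobic cells, rose by 2.15, though from few reads, at 20.0, 28.0 and 33.2 normalised counts at 4 µg/mL against 7.41, 3.99 and 6.41 in the control. PET9, the main ADP/ATP carrier, was not called (0.36). The phosphate carriers MIR1 and PIC2, at 0.32 and 0.38, were not called either. Of the oxodicarboxylate carriers ODC1 fell by 1.63 and ODC2 rose by 1.95, and of the subunits of the mitochondrial pyruvate carrier MPC3, the respiratory form, fell by 2.14 and MPC2, the fermentative form, rose by 1.20.

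Of 13 regulators of respiration genes, 5 fell (38.5%, against 23% of all genes tested) and 1 rose (7.69%, against 19.3%), with a median of -0.47. HAP4 (YKL109W), the activating subunit of the HAP complex, had 5565, 3732 and 5166 normalised counts at 4 µg/mL, against 9946, 7933 and 8568 in the control. The groups were apart, and HAP4 fell by 0.87 (SE 0.28, adjusted p = 0.0244 by edgeR), a call lost when control replicate 1 or 3, or replicate 2 or 3 of 4 µg/mL, was left out (adjusted p = 0.0503 to 0.0935). Of the DNA-binding subunits, HAP5 (-1.03) and HAP2 (-0.64) also fell, while HAP3 was not called. RTG1 (-0.75), of the retrograde pathway from mitochondria to the nucleus, fell too, as did CAT8 (-1.28), an activator of genes for growth without glucose. MOT3, a repressor of hypoxic genes, rose by 0.65. Calls were lost in 4 alternatives for HAP5 (adjusted p = 0.0582 to 0.097), 8 for HAP2 (0.0508 to 0.151), 4 for RTG1 (0.0772 to 0.0851) and 3 for MOT3 (0.073 to 0.102), and in none for CAT8. HAP1, the haem-dependent activator, which is interrupted by a Ty1 element in this strain background, was at 0.17, and ROX1 at -0.47, neither called.

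**Figure D4:**
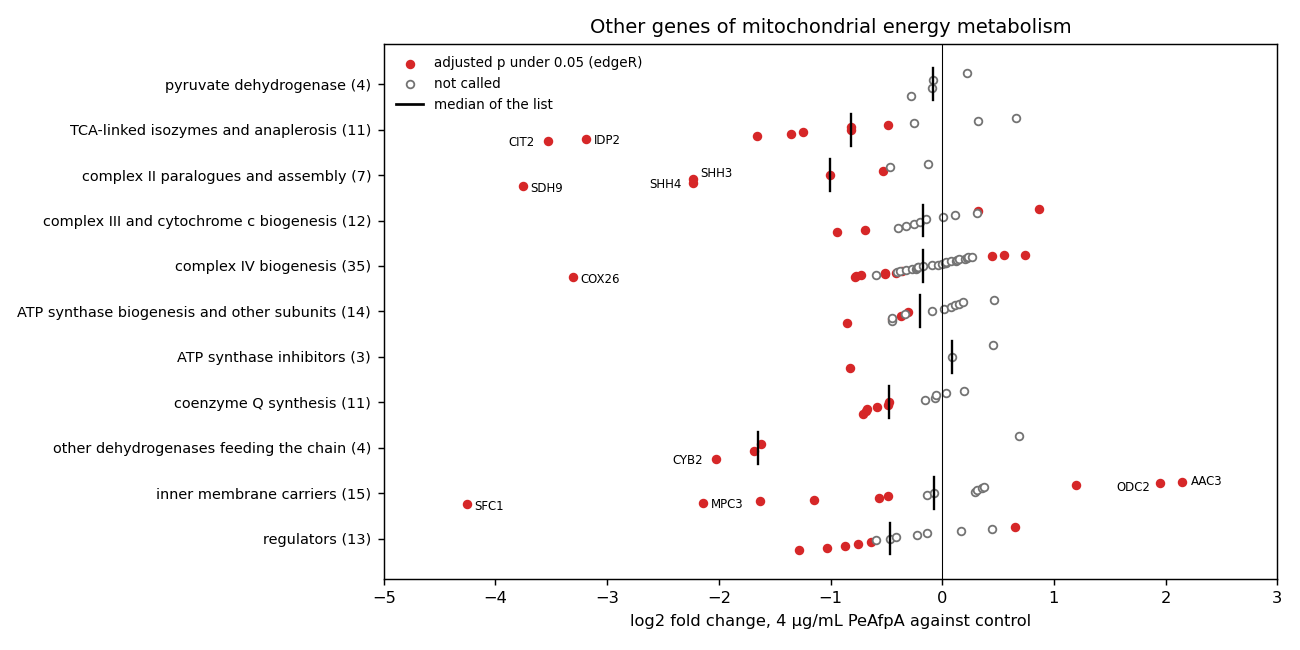
Log2 fold change of 4 µg/mL PeAfpA against control (horizontal axis) for each gene of the 11 lists around the 51 genes, with the number of genes in each list in brackets (points: genes, filled red if called by edgeR; vertical bars: list medians). Dehydrogenases, complex II paralogues and TCA-linked isozymes lie furthest to the left by median, and carriers reach both ends, with SFC1 at -4.26 and AAC3 at 2.15.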

How the data were processed

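Single-end libraries of the TruSeq RNA v2 kit, which selects polyadenylated RNA and does not mark strand, were trimmed by the authors with Trimmomatic 0.39, mapped with Bowtie2 2.3.2 to R64 and counted per gene with HTSeq 0.9.0. The deposited values are raw counts, without normalization. How the counting treated strand, overlaps and mapping quality is not given in the sources used here, and 683 of the 6600 features had no position in the annotation used (0.172% to 0.323% of counts), so overlaps with those were not checked. None of the 51 genes overlaps an annotated gene.

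Genes entered the tests with a mean over the 12 libraries of 1 TPM or more (1 CPM where the annotation gave no length). Counts were scaled by TMM and tested with edgeR 4.0.16 (R 4.3.3) by glmQLFTest in a fit of 4 conditions over 12 libraries, and p-values were adjusted over the 5909 genes. Standard errors are the log2 fold change over the square root of F. Alternatives were DESeq2 1.42.0 with and without independent filtering, limma 3.58.1 (voom with sample quality weights), the 2 groups alone, RLE factors, library size alone, 2 other filters, the replicate number as a block, each library left out in turn and, added after seeing the data, the 2 libraries of lowest TMM factor left out. Isoform ratios were tested exactly in Python 3.11.15. The edgeR fit of 4 µg/mL against control was tested on simulated counts, with far fewer genes changed than were called here. The exact test was tested on a fixed example, and DESeq2 and limma-voom were not tested in this way.

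The genes and lists were chosen with earlier results of these data known. Values in every library are given for the members of largest and smallest fold change in each complex, both isoforms of the 4 pairs, NDI1 and members called at 1 or 2 µg/mL. Other lists are given by counts, median and the called member of largest change, with HAP4. Further list genes, such as the pairs of carriers, were named after their values were seen. Promoters are the 300 bases before each start codon in the R64 genome. Copies were searched with blastn 2.17.0. The p-values of edgeR weigh a difference against the spread between cultures of the same condition, estimated over all 4 conditions in 1 fit. The assays other than RNA-seq are not analysed here.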

Additional observations from a re-analysis of the deposited data

How the results depend on the processing

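Over 22 alternatives, none of the 21 genes called at 4 µg/mL against control changed sign, and 11 kept their call in all of them. The count that fell, 20, was 39.2% of the 51, against 23% of all genes tested. It was 23 in DESeq2 (45.1%, against 22.7% of all) and 26 in limma-voom (51%, against 32.2%). With the 2 groups alone it was 17 (33.3%, against 23.1%), and with RLE factors 18 (35.3%, against 21%). Library size alone gave 23 (45.1%, against 26.6%), and either other filter 20 (39.2%, against 20.8% and 22.8%). With each library left out it was 10 (19.6%, against 17.7%) to 27 (52.9%, against 22.4%). Those that rose, 1 (1.96%, against 19.3% of all), were 2 in DESeq2 with or without independent filtering (ATP2 added, 3.92%, against 23.1%). In limma-voom they were 5 (ATP2, ATP17, LSC1 and QCR9 added, 9.8%, against 26.7%). With each library left out 1 rose, against 11.2% to 22.5% of all genes. At 2 µg/mL limma-voom alone gave calls, 1 up and 4 down, where it called 21.7% of all genes tested. With each library left out edgeR gave 0. Against 2 µg/mL, 5 genes rose in limma-voom in place of 1, and falls ran from 10 to 23 with each library left out, in place of 17. The shares of all genes in these fits against 2 µg/mL were not computed. The causes of these moves in counts were not tested. Leaving a library out lowers the number of libraries and removes its values at the same time.

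Library size alone moved the median of all genes from -0.04 to -0.24. CYC1, at 0.05, was at -0.12 in that fit, -0.04 without control replicate 1 and -0.13 without replicate 1 of 4 µg/mL, and ranged from -0.13 to 0.18 with each library left out, never called. With each of the 6 libraries left out, the difference in log2 ratio was -2.57 to -2.13 for COX5A to COX5B, 1.82 to 2.29 for CYC1 to CYC7, 2.43 to 2.77 for CIT1 to CIT3 and 3.58 to 4.17 for NDE1 to NDE2. Replicate numbers did not pair the libraries (correlations of deviations of -0.37 to 0.25 for the same number and -0.46 to 0.47 for others). With the replicate number as a block, 18 genes fell (35.3%, against 20.5% of all) and 1 rose (1.96%, against 17%) at 4 µg/mL, with COX9 and LPD1 lost.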

Other observations

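The 7 subunits that mitochondrial DNA encodes could not be set beside the nuclear ones. They had 0 to 26 counts per library in these libraries of polyadenylated RNA, and only OLI1, a subunit of ATP synthase, passed the filter, with 5.71, 10.8 and 19.1 normalised counts at 4 µg/mL, against 1.85, 1.99 and 0 in the control. edgeR called it (adjusted p = 0.0274), and the call was lost in 5 of the fits that leave out a library.

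Coding length differed between the genes that fell and the rest of the 51, with medians of 1096.5 and 468 bases, against 1326 bases for all genes that fell and 1209 for all genes tested. The part of length in the result was not tested. Of the genes with coding sequences over 1300 bases, CIT1, CIT3, ACO1, KGD1, FUM1, LPD1, SDH1, NDI1 and NDE2 fell. ATP1, ATP2, COR1, NDE1 and KGD2, also over that length, were not called.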
